A study of Mus musculus with 9 samples.

Results

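The imprinted noncoding RNAs described here are long transcripts made from only the maternal or only the paternal copy of their locus. They were chosen by name: every probe whose identifier held a RefSeq accession or a RIKEN clone (a cDNA clone of the RIKEN collection) of Meg3, Rian, Mirg, Airn, Kcnq1ot1, Igf2os, Peg13, H19, Nespas or Snhg14 was taken, whatever its value. Of these 10 genes, 6 had such a probe, out of 5398 genes on the array that could be named this way, and together they had 8 probes. Mirg, H19, Nespas and Snhg14 had 0 probes that could be named and were not analysed here. The list of genes was drawn up from earlier results of the same arrays, in which Meg3 and Rian differed between high fat diet and control and between metformin and control, and Airn differed between metformin and high fat diet. Those differences are given below as descriptions. The same probes are included in the counts of calls below, which are therefore no independent test of them.

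The samples were livers of male mice of the inbred strain C57BL/6J, read on 9 one-colour Agilent arrays, each holding RNA pooled from 4 animals aged 20 weeks. The 3 control pools came from mice fed standard chow over 17 weeks, and the labels record no gavage for them. The 3 high fat diet pools came from mice fed for 17 weeks on chow with 45% of its energy from fat and given saline by gavage over the final 5 weeks. The 3 metformin pools came from mice on that same fat-rich chow that were gavaged over those 5 weeks with metformin, a glucose-lowering drug, at 3 mg/kg per day. The labels name no genetic change in any group. Diet and gavage changed together between control and high fat diet, so their effects cannot be told apart, whereas the metformin and high fat diet groups shared both. Pools are abbreviated C1 to C3 (control), H1 to H3 (high fat diet) and M1 to M3 (metformin). The pools were separate samples per the labels, and their spread is that of averages over 4 mice, not of single mice.

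In genomic imprinting, DNA methylation laid down in the egg or sperm marks one parental copy of a cluster, so that some genes are read from the maternal copy only and others from the paternal copy only. Many clusters contain a long noncoding RNA. On the paternal copy, transcription of Airn silences the growth factor receptor gene Igf2r, and Kcnq1ot1 silences several genes around Kcnq1, among them the cell cycle inhibitor Cdkn1c. In the Dlk1-Dio3 cluster, Meg3, Rian and Mirg follow each other on the maternal copy and are read in the same direction, while Dlk1, Rtl1 and Dio3 are read from the paternal copy. Rian is the host of small nucleolar RNAs and microRNAs, and Mirg of a large group of microRNAs. Igf2os runs antisense to the paternally expressed growth factor gene Igf2, and Peg13 is a paternal transcript inside Trappc9, near Kcnk9. The arrays read RNA from both copies together, so parental origin is background knowledge here and was not measured. In RNA from whole liver, fewer cells of a type and less RNA per cell cannot be told apart.

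RefSeq (build GRCm38.p6) places 1 microRNA hairpin, Mir770, within Meg3 on its strand, 3 within Rian (Mir1188, Mir341 and Mir370) and 10 within Mirg. The start regions of the members whose values the results below turn on are shown because they differ in their content of CG dinucleotides, the sites at which DNA is methylated. Each window runs from 250 bases before to 50 bases after an annotated start, read 5′ to 3′ on the gene's own strand. Capitals mark matches, on either strand, to the hexamer TGCCGC, bound by the imprinting factor ZFP57 when methylated, and to the cAMP response element core TGACG. The full palindromic element, TGACGTCA, contains the core on both strands.
Meg3, chr12:109540746-109541045, plus strand: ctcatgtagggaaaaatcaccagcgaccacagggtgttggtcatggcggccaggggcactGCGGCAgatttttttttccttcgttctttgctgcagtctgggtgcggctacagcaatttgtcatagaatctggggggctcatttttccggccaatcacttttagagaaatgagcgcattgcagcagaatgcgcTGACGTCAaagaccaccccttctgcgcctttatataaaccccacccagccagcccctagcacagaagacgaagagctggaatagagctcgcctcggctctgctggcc
Rian, chr12:109603695-109603994, plus strand: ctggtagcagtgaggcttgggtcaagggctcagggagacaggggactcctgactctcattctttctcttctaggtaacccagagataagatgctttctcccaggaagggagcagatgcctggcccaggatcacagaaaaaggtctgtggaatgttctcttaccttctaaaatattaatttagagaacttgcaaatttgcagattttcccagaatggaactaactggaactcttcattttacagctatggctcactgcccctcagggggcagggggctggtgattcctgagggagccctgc
Kcnq1ot1, chr7:143296498-143296797, minus strand: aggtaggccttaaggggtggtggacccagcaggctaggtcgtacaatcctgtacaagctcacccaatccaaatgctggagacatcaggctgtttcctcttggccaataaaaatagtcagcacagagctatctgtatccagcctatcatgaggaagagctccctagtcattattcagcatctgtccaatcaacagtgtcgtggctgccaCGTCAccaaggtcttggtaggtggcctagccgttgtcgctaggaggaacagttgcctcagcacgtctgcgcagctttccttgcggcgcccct

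The Meg3 window shown held 13 CG dinucleotides. It had 1 TGCCGC match, at position -190 from the start, and a full TGACGTCA at position -57. RefSeq gives Meg3 a further start window, chr12:109545148-109545447, which held 1 CG dinucleotide and 0 matches. Which of the Meg3 starts belongs to the transcript named by the array probe was not determined here. The Rian window held 0 CG dinucleotides and 0 matches. The Kcnq1ot1 window held 9 CG dinucleotides and 1 TGACG core, at position -42. Among all 32851 RefSeq start windows of this length, the median number of CG dinucleotides was 7 (quartiles 3 and 20), 11.61% held TGCCGC, 20.81% held TGACG and 1.79% held TGACGTCA. A match is a string of letters and does not show that a protein binds there, and no methylation was measured.

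Of 97836 probes on the array, 62036 were tested, which required a signal well above background on at least 3 arrays. All levels are log2 signals relative to the 75th percentile of their own array, so 0 is the level below which 75% of the probes lie, and levels of different probes cannot be set against each other. Differences between groups are on the same log2 scale, with standard errors (SE) from a limma fit to all 9 arrays. Controls and H1 were hybridised on slide 1, H2, H3, M1 and M2 on slide 2 and M3 alone on slide 3, per the file headers. Control and metformin therefore never shared a slide. C1 stood apart from the other controls, with a correlation across tested probes of 0.975 with C2 and 0.973 with C3, against 0.990 between C2 and C3. Among the tissue markers, the hepatocyte transcript Hnf4aos was well above background on 9 of 9 arrays with both of its probes. The hepatocyte list had a named probe for 1 of 11 genes, the skeletal muscle list for 2 of 5, and the stellate, endothelial, Kupffer, bile duct and blood cell lists for 0. The make-up of the pools by cell type was therefore not tested.

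Of the 8 member probes, 7 were tested, and the remaining one, a clone probe of Rian, was never well above background. At an adjusted p under 0.05 (limma, Benjamini-Hochberg over all 62036 probes), 0 of 7 were called between high fat diet and control, where 0.0451% of all tested probes were. Between metformin and high fat diet 0 of 7 were called, against 0.00645% of all probes, and between metformin and control 0 of 7, against 0.546%. At an unadjusted p under 0.05 the member counts were 5, 2 and 3 of 7, where 12.1%, 6.64% and 19.1% of all tested probes were. The first and last of these counts include Meg3 and Rian and the middle one the clone probe of Airn, which were chosen for those differences. With so small a share of the array called, a count of 0 among 7 probes does not set the members apart from other probes. The median difference of the 7 probes was -0.49 for high fat diet minus control, -0.04 for metformin minus high fat diet and -0.44 for metformin minus control, while the medians over all tested probes were -0.01, 0.01 and -0.01. These medians again include the probes chosen for their differences, so the lower medians against control are in part that choice. Pools of the compared groups lay fully apart for 4 of 7 members between high fat diet and control (15.4% of all probes), for 2 of 7 between metformin and high fat diet (16.2%) and for 2 of 7 between metformin and control (24.9%). Meg3 and Rian, whose values led to the choice of the list, are among the first 4, as are the accession probe of Airn and Kcnq1ot1. All 7 tested probes passed the background filter, but Rian did so through the controls and M1 alone.

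**Figure D1:**
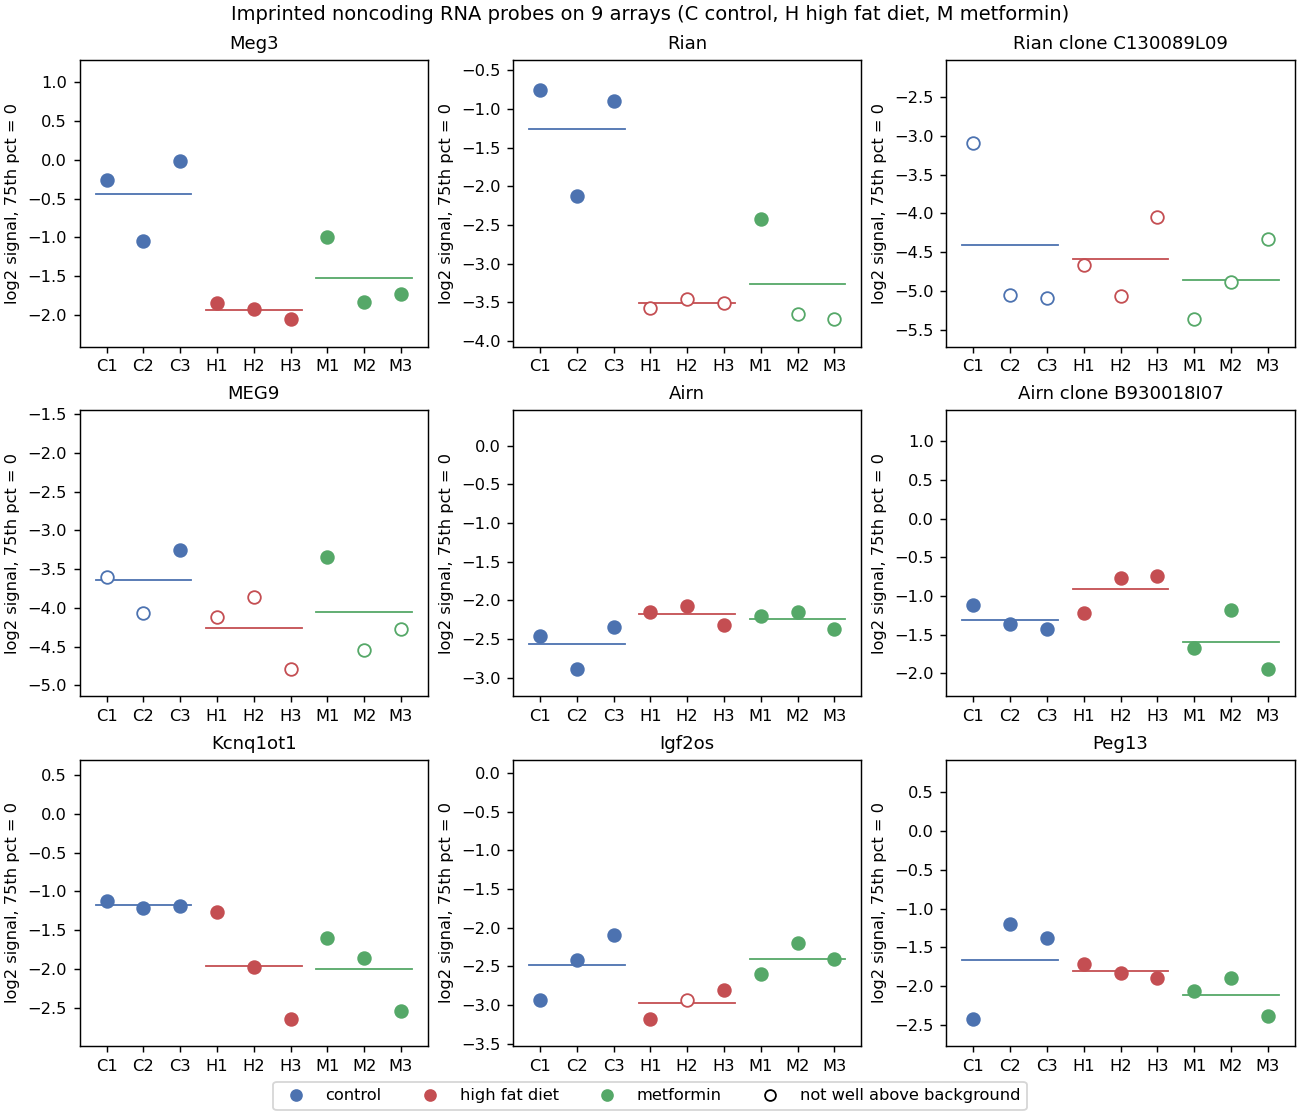
Level of each member probe, and of the MEG9 probe, in the 9 pools. The y axis is the log2 signal above or below the array's 75th percentile and spans the same width in every panel, but its origin differs between panels. Points are single arrays, open where the probe was not well above background, and lines are group means. Meg3 and Rian are high in the controls and in M1, and Kcnq1ot1 is high in the controls and H1.

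Among the member probes, the ranges over the pools were widest for the maternal Dlk1-Dio3 cluster. They were 2.97 for the accession probe of Rian, 2.27 for its clone probe and 2.04 for Meg3. The clone probe was never well above background, and Meg3 and Rian were chosen for differences between these pools. The wide ranges therefore do not set the cluster apart. Meg3, a spliced noncoding RNA with growth-restraining activity in cultured cells, was measured by 1 probe, for the transcript NR_027652.1, 1 of 3 Meg3 transcripts in RefSeq. Its level was -0.26, -1.05 and -0.02 in C1, C2 and C3. It was -1.85, -1.92 and -2.06 in H1, H2 and H3, and -0.998, -1.84 and -1.74 in M1, M2 and M3. Every high fat diet pool was below every control, and M1 lay slightly above the lowest control, C2, far from the other metformin pools. In background-subtracted intensity units, Meg3 read 202, 114 and 239 in the controls. It read 60.3 to 62.0 in the high fat diet pools and 108 in M1. The local background was 19.3 to 23.0. Here and below it is given before subtraction, so it cannot be set directly against the subtracted intensities. The 2 spots of the Meg3 probe differed by a median of 0.14 and at most 0.33 on the log2 scale, less than the distance of any high fat diet pool from any control. The group means were -0.44 ± 0.54 (SD, n = 3) in control, -1.94 ± 0.11 in high fat diet and -1.52 ± 0.46 in metformin.

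The Meg3 difference was -1.50 (SE 0.29) for high fat diet minus control, a 2.83-fold lower level, and -1.08 (SE 0.29) for metformin minus control. Of all tested probes, 0.732% fell at least as far as Meg3 between control and high fat diet. Meg3 was chosen for this difference, so the small share follows from that choice and is no test. Within slide 1, H1 differed from the mean of the 3 controls by -1.41. Without C1 the differences from control were -1.41 for high fat diet and -0.99 for metformin. With the background correction changed to normexp, which compresses dim signals, the high fat diet difference was -0.91 and the metformin difference from control -0.63. Metformin minus high fat diet was 0.42 (SE 0.29), with an adjusted p of 0.845 (limma). All 3 metformin pools were above all 3 high fat diet pools, but M2 and H1 were only about 0.01 apart, and without M1 the difference was 0.16.

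Rian, the transcript that follows Meg3 in the cluster, had an accession probe (NR_028261.1) and a clone probe (C130089L09). The accession probe was at -0.75, -2.12 and -0.90 in C1, C2 and C3. It was at -3.57, -3.46 and -3.51 in the high fat diet pools, and at -2.43, -3.65 and -3.72 in M1, M2 and M3. Only the 3 controls and M1 were well above background. All 3 controls exceeded the other 6 arrays, an order shown by 4.64% of all tested probes and, for Rian, partly given by its choice. Its background-subtracted intensities were 144, 54.1 and 129 in the controls, 40.1 in M1 and 13.4 to 22.6 on the other 5 arrays. On those 5 arrays the local background before subtraction was 20.0 to 22.0. The fitted difference of high fat diet from control was -2.25 (SE 0.41), a 4.77-fold lower level, but the high fat diet level was not resolved from background. On H1, H2 and H3 the lowest signals well above background were -4.43, -4.05 and -4.20. These lay below the probe's own signals, so they set no separate bound on the fold.

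Metformin minus control was -2.01 for Rian (SE 0.41), with 1 of 3 metformin pools above background. Metformin minus high fat diet was 0.25 (SE 0.41, limma adjusted p = 0.949), and without M1 it turned to -0.17. Within slide 1, H1 differed from the control mean by -2.31. Without C1 the differences from control were -2.001 for high fat diet and -1.75 for metformin. Under normexp the high fat diet difference shrank to -1.03 and the metformin difference from control to -0.86. Rian had 1 accession spot per array, so its spot-to-spot error could not be measured. The clone probe of Rian ranged from -5.37 in M1 to -3.10 in C1, was not well above background on any array and gave no order of the groups.

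Meg3 and Rian stood high in the same pools. C2 was the lowest control for both RNAs. M1 was the highest of the 6 pools from mice on the high fat diet for both, 0.74 above the next for Meg3 and 1.03 above for Rian. A margin of M1 over the other 5 high-fat pools at least as wide as that of Meg3 was found for 131 of 62036 probes (0.211%), and one as wide as that of Rian for 39 (0.0629%). M1 was singled out after these values were seen, and only its own margin was counted, so the small shares are no test. For Rian the margin was taken from 5 pools that were not well above background. Across the 9 arrays Pearson's r between Meg3 and Rian was 0.98 and Spearman's rho 0.65. Without C1 and C3, the arrays farthest from the Meg3 median, r was 0.93. These points share arrays, groups and slides, and the 5 remaining high-fat pools lie in 1 tight group, in which Rian was not well above background and its order is not resolved. Both were chosen for lower values in the high-fat groups than in control, so that choice is part of the correlation. M1 and C2 lay near each other on both RNAs, although they came from different groups and slides.

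**Figure D2:**
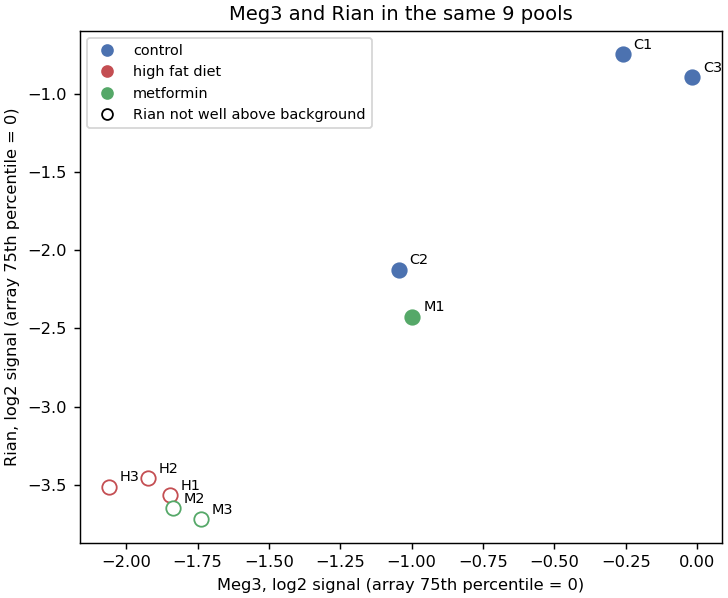
Level of Rian (y axis) against that of Meg3 (x axis), both in log2 units from the array's 75th percentile, with 1 point per pool. Open points mark pools in which Rian was not well above background. C1 and C3 are high for both RNAs, C2 and M1 are intermediate, and the other 5 pools are low.

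A further probe of the cluster fell outside the rule: it was named MEG9, a synonym of Mirg, without a RefSeq accession of that gene. It was well above background in C3 and M1 only, in M1 with a single spot of the 2, so it was not tested. Its level was -3.61, -4.06 and -3.25 in the controls, -4.12, -3.85 and -4.79 in the high fat diet pools and -3.34, -4.55 and -4.27 in the metformin pools. The highest pools were C3, M1 and C1, which were also the 3 highest for Meg3. Its 2 spots differed by a median of 0.38 and at most 0.94, so the order of its dim pools lies within spot error.

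By a fixed rule, the 5 named probes with the highest r to each of Meg3 and Rian over the 9 arrays were listed. For Meg3 they were Gm32770 (r = 0.929), Gm39741 (0.924), Gm38566 (0.921), A230072I06Rik (0.911) and Gm41568 (0.909). For Rian they were Gm32770 (0.945), Gm33862 (0.941), Gm32342 (0.936), Gm38566 (0.933) and Gm39741 (0.930). Gm32770, Gm38566 and Gm39741 stood on both lists. All of these were lower in both high-fat groups than in control. That direction follows largely from choosing them, out of 2835 tested named probes, by likeness to Meg3 or Rian on the same arrays. The mean of Gm32342 went from 2.40 in control to -0.13 in high fat diet and 0.20 in metformin.

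Airn, the paternal RNA of the Igf2r cluster, is a long and mostly unspliced transcript that runs antisense across the start of Igf2r. It was measured by 2 probes, for the transcript NR_027784.1, 1 of 4 in RefSeq, and for clone B930018I07. The accession probe read -2.46, -2.89 and -2.35 in the controls, -2.15, -2.08 and -2.31 in high fat diet and -2.20, -2.15 and -2.37 in metformin. The clone probe read -1.12, -1.36 and -1.43 in the controls, -1.22, -0.77 and -0.74 in high fat diet and -1.67, -1.18 and -1.95 in metformin. For the accession probe every high fat diet pool was above every control, by as little as 0.04, whereas for the clone probe C1 lay above H1.

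Between high fat diet and control both Airn probes gave 0.39, with an SE of 0.17 for the accession probe and 0.22 for the clone probe (limma adjusted p = 0.399 and 0.526). Without C1 these were 0.44 and 0.48, and without C2 the accession probe gave 0.23. With slide as a block the accession probe gave 0.42 and the clone probe 0.09, and under normexp the accession probe gave 0.16. The 2 probes parted in the metformin pools: metformin minus high fat diet was -0.06 (SE 0.17) for the accession probe and -0.69 (SE 0.22) for the clone probe. Metformin minus control was 0.33 (SE 0.17, limma adjusted p = 0.329) and -0.30 (SE 0.22, adjusted p = 0.491), and without C1 the values were 0.38 and -0.21. Metformin minus control was 0.16 for the accession probe without C2, and for the clone probe -0.12 without M3 and -0.51 without M2. The pools overlapped in both metformin comparisons for both probes. Which Airn transcripts each probe reads, and on which strand, is not stated in the labels or files used here, and the difference between the probes was not tested.

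Kcnq1ot1, the paternal RNA that starts within Kcnq1 and runs antisense to it, was measured by 1 probe (NR_001461.5) above background on all 9 arrays. It read -1.12, -1.21 and -1.19 in the controls, -1.26, -1.98 and -2.65 in H1, H2 and H3, and -1.60, -1.86 and -2.54 in M1, M2 and M3. The SD of the 3 controls was 0.05, and all 6 high-fat pools were below them. H1, the only high fat diet pool on the slide of the controls, was 0.05 below the lowest of them and far above H2 and H3. High fat diet minus control was -0.79 (SE 0.33, limma adjusted p = 0.386), and metformin minus control was -0.83 (SE 0.33, adjusted p = 0.222). Without C1 the differences from control were -0.76 and -0.80, and without H3 high fat diet minus control was -0.45. Under normexp the differences from control were -0.37 and -0.35. Metformin minus high fat diet was -0.04 (SE 0.33, limma adjusted p = 0.993).

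The level of Kcnq1ot1 was higher on slide 1, which held the controls and H1, than on the other slides. The 4 arrays of slide 1 lay between -1.26 and -1.12, those of slide 2 between -2.65 and -1.60, and the array of slide 3 at -2.54. All 4 slide 1 arrays exceeded the other 5, which held for 4.26% of all tested probes. Within slide 1, H1 differed from the control mean by -0.09, and with slide as a block the differences were -0.09 for high fat diet minus control and 0.49 for metformin minus control. Within slide 2, metformin minus high fat diet was 0.58. The 2 spots of the probe differed by a median of 0.43 and by 1.17 in M3. Diet and slide cannot be told apart for this RNA beyond the single pool H1, and the part of the slide in its lower level was not tested.

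**Figure D3:**
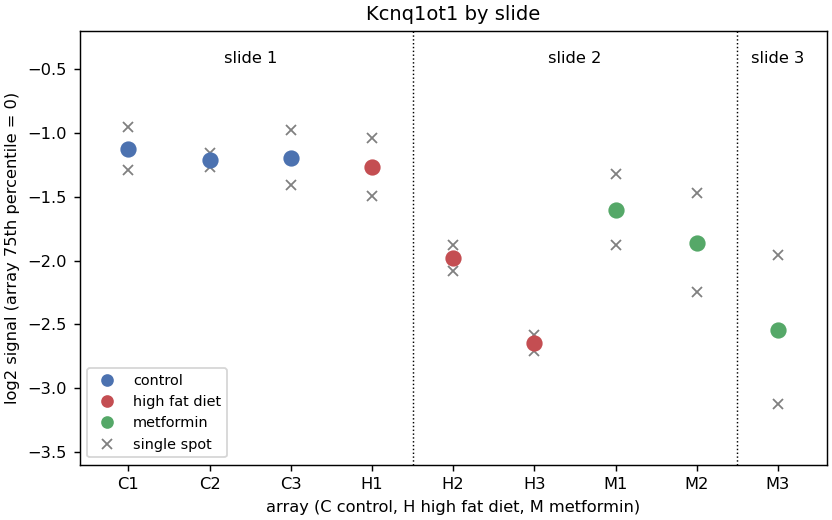
Level of Kcnq1ot1 (y axis, log2 signal above or below the array's 75th percentile) on each array (x axis), ordered by slide. Large points are the probe's level per array, coloured by group, and crosses are its single spots. The 4 arrays of slide 1, H1 among them, lie between -1.26 and -1.12 and above all 5 other arrays.

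Igf2os, the paternal antisense transcript of Igf2, was measured by the probe of NR_002855. It read -2.93, -2.42 and -2.10 in the controls, -3.18, -2.93 and -2.81 in high fat diet and -2.59, -2.20 and -2.41 in metformin. It was well above background on 8 of 9 arrays, H2 being the exception. On C1, H1 and H3, however, only a single spot of the 2 passed, and on H2 neither did. Both spots passed on C2, C3 and all metformin arrays, so the high fat diet group lay at the limit of detection. Its background-subtracted intensities were 24.0 to 56.5, and the local background before subtraction was 21.0 to 29.0. All 3 metformin pools were above all 3 high fat diet pools, while C1 lay at the level of H2. Metformin minus high fat diet was 0.57 (SE 0.22, limma adjusted p = 0.697), and high fat diet minus control was -0.49 (SE 0.22, adjusted p = 0.414). Under normexp these were 0.28 and -0.13. Metformin minus control was 0.08 (SE 0.22, limma adjusted p = 0.875). Without C1, high fat diet minus control was -0.71 and metformin minus control -0.14, and without C3 they were -0.30 and 0.27. The 2 spots of the probe differed by a median of 0.25 and at most 0.84, against a distance of 0.21 between the nearest metformin and high fat diet pools.

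Peg13, the paternal RNA inside Trappc9, was measured by the probe of NR_002864, which was above background on all arrays. It read -2.43, -1.20 and -1.38 in the controls, -1.72, -1.83 and -1.89 in high fat diet and -2.06, -1.89 and -2.38 in metformin. C2 and C3 were above all 6 high-fat pools, and C1 was the lowest of the 9. High fat diet minus control was -0.14 (SE 0.29, limma adjusted p = 0.918), metformin minus high fat diet was -0.30 (SE 0.29, adjusted p = 0.896) and metformin minus control was -0.44 (SE 0.29, adjusted p = 0.435). Without C1, the control that stood apart over all probes, metformin minus control was -0.82 and passed the threshold (limma adjusted p = 0.0410), and high fat diet minus control was -0.52. Leaving out C1 also raised the calls between metformin and control from 339 to 2711 of 62036 probes, so the call does not set Peg13 apart. Without C2, metformin minus control was -0.21 (limma adjusted p = 0.780) and high fat diet minus control 0.09. Its 2 spots differed by a median of 0.19 and at most 0.29, so the low reading of C1 was seen in both.

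**Figure D4:**
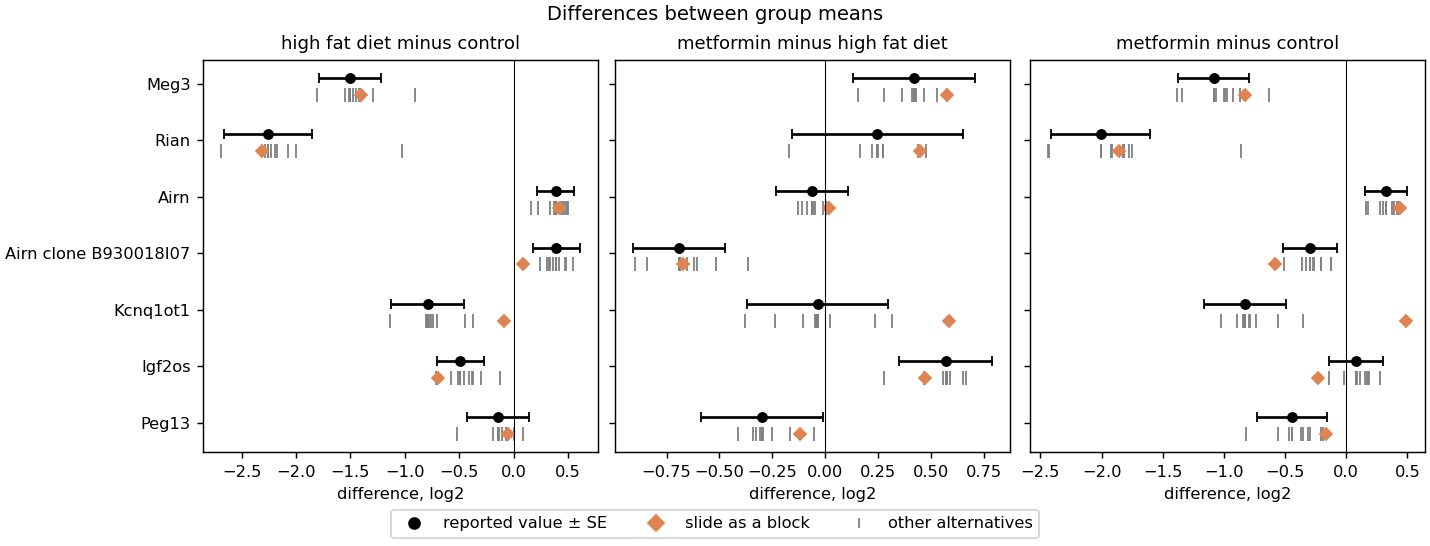
Difference between group means on the log2 scale (x axis) for the 7 tested member probes (y axis), in 3 panels for the 3 contrasts. Black points are the reported values with their standard errors, orange diamonds the values with slide as a block, and grey ticks those under the other alternatives. Meg3 and Rian, chosen for these differences, stay below 0 under all of them in both comparisons with control. Kcnq1ot1 changes sign with slide as a block in both metformin panels. Some alternatives cannot change a difference, so their ticks coincide with the reported value.

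By parental origin, the tested RNAs of the maternal copy (Meg3 and Rian, 1 cluster) were both lower in the high fat diet group than in control. Of the 5 probes of paternal RNAs from 4 clusters, Kcnq1ot1, Igf2os and Peg13 had values of -0.79, -0.49 and -0.14 and the 2 Airn probes 0.39 each. None of the 7 probes, maternal or paternal, was called over all probes. The 2 maternal RNAs share a cluster and were part of the reason for the choice of genes, so the pattern by parental origin is a description of these probes. Among 85 further imprinted genes on a list, 6 had a named probe (Zim3, Plagl1, Chrac1, Ppp1r9a, Wt1 and Impact). They had 7 probes, of which 5 were tested and 0 called in any contrast. Impact, a regulator of translation, read 1.89 ± 0.14 in control, 2.22 ± 0.49 in high fat diet and 1.86 ± 0.07 in metformin (SD, n = 3 each). Zim3, a zinc finger gene of the Peg3 cluster, differed by -0.04 (SE 0.14) between high fat diet and control with its clone probe.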

How the data were processed

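The 9 arrays of pooled liver RNA were scanned and extracted by the authors with Agilent Feature Extraction, version 11.5.1.1 per the file headers and 10.7 per the submitters' processing notes. The deposited scanner files give a background-subtracted intensity per spot. The deposited table of log2 values equals the log2 intensity less 1 constant per array, as checked here. For the present values, spots marked as outliers were left out, spots of a probe were averaged on the log2 scale and the 75th percentile of the array was taken off. A probe was tested when at least a share of 0.5 of its spots was well above background on at least 3 arrays. One model with 3 group means was fitted to all arrays in limma 3.58.1 under R 4.3.3 (lmFit and eBayes, 6 residual degrees of freedom), with Benjamini-Hochberg adjustment over 62036 probes. The script was tested on simulated data. A permutation test of 3 pools against 3 cannot give a two-sided p below 0.1. Probes were named through RefSeq accessions (4658) and RIKEN clones (1209), and every member probe is described whatever its value. The members and lists were chosen with earlier results of these data known. Alternatives were quantile and median scaling, normexp background correction, other filters, the deposited table, slide and replicate number as blocks, fits of 2 groups and leaving out each pool. The extraction files hold median rather than mean spot signals, so normexp was run on the median signal, a choice made after seeing the data. The header names build mm9, and start windows come from RefSeq, GRCm38.p6.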

Additional observations from a re-analysis of the deposited data

How the results depend on the processing

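Of 372 member differences recomputed under the alternatives, 358 kept their sign, and 15 of 21 results kept it under every alternative run, the comparisons of Meg3 and Rian with control among them. Many of the 372 could not change. Other filters, fits of 2 groups, the replicate block and leaving out a pool of the third group leave a difference of group means as it was. The deposited table leaves it nearly so. These counts therefore overstate how stable the differences are. Between metformin and control, 1 member was called under normexp (Rian, for whose difference the list was partly chosen, so this is no independent support) and 1 without C1 (Peg13), so that leaving out 1 pool gave 0 to 1 calls. Of all 62036 tested probes, 594 were called under normexp and 2711 without C1, against 339 in the reported fit. Under normexp, metformin minus high fat diet turned to 0.017 for Airn and 0.021 for Kcnq1ot1. With slide as a block, metformin minus high fat diet turned to 0.020 for Airn and 0.58 for Kcnq1ot1, and metformin minus control to 0.49 for Kcnq1ot1 and -0.23 for Igf2os. Leaving out 1 pool gave ranges that crossed 0 for metformin minus high fat diet of Airn (-0.13 to 0.0042), Kcnq1ot1 (-0.38 to 0.31) and Rian (-0.17 to 0.48), for metformin minus control of Igf2os (-0.14 to 0.27) and for high fat diet minus control of Peg13 (-0.52 to 0.091).

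Over all probes, the calls for the 3 contrasts (28, 4 and 339) were 64, 7 and 594 under normexp and 2, 0 and 0 with slide as a block, and without C1 the last became 2711. Deviations of same-numbered pools from their group means correlated between -0.09 and 0.13, and those of differently numbered pools of different groups between -0.14 and 0.10. This gave no clear sign of pairing by number and cannot exclude it. With the replicate block 0 members were called, and all-probe calls were 0, 0 and 79. That block is balanced over the groups, so the differences of Meg3 (-1.50) and Rian (-2.25) for high fat diet minus control could not change. Rian and Igf2os have no value under the filter that asks for all 9 arrays. Rian, Igf2os and MEG9 were not well above background on every array, which limits what these arrays can resolve.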

Other observations

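Named probes of other genes within 500 kb of a member, a distance set after seeing the data, gave 0 calls in any contrast. Near Meg3 and Rian, 4 tested probes of the noncoding gene Gm34667 differed by -0.31 to 0.17 between high fat diet and control. Near Airn, the noncoding genes Gm36277 (-1.36, SE 0.52), C030013G03Rik (-0.93, SE 0.39) and Gm36226 (-0.10, SE 0.15) had negative differences, where both Airn probes had 0.39. Gm36277 was well above background on 4 arrays and C030013G03Rik on 3. Near Kcnq1ot1, Nap1l4, a histone chaperone gene, had 0.27 (SE 0.21), 4933417O13Rik had 0.009 (SE 0.15) and the noncoding R74862 had 0.33 (SE 0.19). A further probe of R74862 was well above background on 1 array and was not tested. Near Igf2os, Nctc1, a noncoding gene beyond H19, had 0.04 (SE 0.23). Near Peg13, Chrac1, a chromatin remodelling subunit, had -0.26 (SE 0.15) and Gm31725 had 0.10 (SE 0.20).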
